A study of Mus musculus with 6 samples.

Results

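The 39 genes described here encode enzymes and transporters of central carbon metabolism. They comprise 18 genes of glycolysis, 7 of the pentose phosphate pathway and 14 of the citrate cycle and its branch points, out of 41388 genes in each deposited table. Members were taken by symbol, and each of the 39 matched a single Ensembl gene of the tables, all of them protein-coding in GENCODE M21. RNA came from 2 populations of macrophages sorted from the intima of aortas of C57BL/6 mice lacking Apoe (ApoE -/-), a genotype that raises plasma cholesterol and leads to atherosclerotic plaques. The series design gives 6 mice kept on WD (Western diet) for 28 weeks, and every library of both groups shares this genotype and diet. The foamy population (3 libraries) was gated on viable CD64+CD11b+ cells with strong side scatter and strong staining by BODIPY493/503, which marks neutral lipid. The non-foamy population (3 libraries) was gated on viable CD64+CD11b+ cells that were weak in both. The labels do not say which mice went into which library, and p-values therefore reflect the variation among these 6 libraries, part of which may be technical.

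Glycolysis splits glucose into pyruvate, which is reduced to lactate and exported or passed to the mitochondria. The pentose phosphate pathway branches off at glucose phosphate. Its oxidative arm makes NADPH, which macrophages spend on lipid synthesis, on glutathione reduction and on the oxidative burst, and its non-oxidative arm returns sugar phosphates to glycolysis. The citrate cycle oxidises acetyl-CoA in the mitochondria. Inflammatory activation of macrophages is known for high glycolysis and for diversion of citrate to acetyl-CoA by Acly and of aconitate to itaconate by Acod1.

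Idh1, Hk3, Taldo1 and Pgd were higher in foamy than in non-foamy macrophages, and no member was called lower. Levels are CPM, counts scaled to the library's total in the genes tested times its TMM factor. A gene was called at an adjusted p under 0.05 in edgeR's quasi-likelihood test adjusted by Benjamini-Hochberg across the 11303 genes that were tested. Of these genes 5.41% were called, 2.5% higher and 2.9% lower in foamy libraries. All 39 members passed the filter on low counts. At an unadjusted p under 0.05 edgeR had 10 members higher and 0 lower. At the same unadjusted threshold DESeq2 had 11 higher and 1 lower, and limma-voom 10 higher and 1 lower. At an adjusted p under 0.05 DESeq2 called 8 members higher and 0 lower, and limma-voom 5 higher and 0 lower. Over all genes DESeq2 called 592 of 13805 higher and 827 lower, and limma-voom 279 of 11303 higher and 259 lower. The share of all genes at an unadjusted p under 0.05 was not determined. The 4 called members were 1 of 18 in glycolysis, 2 of 7 in the pentose phosphate pathway and 1 of 14 in the citrate cycle. For 14 members every foamy value lay above every non-foamy value, and for 2 members every foamy value lay below. Such separation was found upward for 12.4% and downward for 13.3% of all genes tested. The median of the log2 fold changes (foamy over non-foamy, given below as log2 change ± its standard error, SE) was 0.32 in glycolysis, 0.15 in the pentose phosphate pathway and 0.03 in the citrate cycle, against -0.04 over all genes tested. With total counts as the only scaling the median of all genes moved by -0.27 on the log2 scale, and the pathway medians were 0.04, -0.18 and -0.23, so that those of the pentose phosphate pathway and the citrate cycle turned negative. Relative to the median of all genes they stood at 0.36, 0.19 and 0.08 with TMM scaling and at 0.36, 0.13 and 0.08 with total counts only. Summed monocyte markers were 14.3 to 24.6 CPM in the foamy and 354 to 661 CPM in the non-foamy libraries, and their part in the values below was not tested.

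The promoters of the 4 called members are printed because these are the members that passed the test. Each run covers 250 bases before to 50 bases after the RefSeq start (GRCm38.p6) nearest to the start in the deposited table, on the gene's strand. Capitals mark matches on either strand to ACGTG or GCGTG, the core of the hypoxia response element. No window of the 4 holds CACGTG (the E-box, which contains ACGTG) or TGACNNNGC (the core of the antioxidant response element).
Hk3 promoter (chr13:55021336-55021635, minus strand): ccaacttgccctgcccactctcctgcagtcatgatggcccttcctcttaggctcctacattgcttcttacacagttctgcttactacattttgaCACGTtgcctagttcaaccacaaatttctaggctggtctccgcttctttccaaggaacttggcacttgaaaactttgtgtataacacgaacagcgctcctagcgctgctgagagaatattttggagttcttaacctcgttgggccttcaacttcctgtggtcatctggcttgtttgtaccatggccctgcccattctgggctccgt
Idh1 promoter (chr1:65186430-65186729, minus strand): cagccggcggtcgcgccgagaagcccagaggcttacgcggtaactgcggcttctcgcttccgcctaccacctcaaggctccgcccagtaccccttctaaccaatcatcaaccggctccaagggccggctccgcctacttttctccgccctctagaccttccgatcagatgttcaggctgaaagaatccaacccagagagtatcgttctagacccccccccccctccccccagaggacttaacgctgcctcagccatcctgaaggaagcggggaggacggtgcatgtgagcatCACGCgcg
Pgd promoter (chr4:149166656-149166955, minus strand): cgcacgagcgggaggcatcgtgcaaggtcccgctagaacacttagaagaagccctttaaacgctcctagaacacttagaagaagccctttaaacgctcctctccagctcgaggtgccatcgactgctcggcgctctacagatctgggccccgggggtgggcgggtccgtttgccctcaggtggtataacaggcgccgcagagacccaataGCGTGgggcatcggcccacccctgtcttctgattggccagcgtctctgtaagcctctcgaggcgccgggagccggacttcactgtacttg
Taldo1 promoter (chr7:141391910-141392209, plus strand): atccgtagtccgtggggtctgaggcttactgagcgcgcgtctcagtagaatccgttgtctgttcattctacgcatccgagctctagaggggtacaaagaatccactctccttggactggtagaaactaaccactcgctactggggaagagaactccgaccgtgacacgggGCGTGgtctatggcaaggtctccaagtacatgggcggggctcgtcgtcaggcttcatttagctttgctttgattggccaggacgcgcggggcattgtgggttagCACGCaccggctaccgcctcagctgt
RefSeq promoters were found for 38 of the 39 members, 53 windows in all, some of them overlapping windows of the same gene. At least 1 window held ACGTG or GCGTG in 32 of these 38 genes (84.2%), against 68.1% of genes tested and 46.7% of all genes in the table of promoters. The windows of the members had a median GC content of 61.3%, against 60.7% for genes tested and 52.7% for all windows. CACGTG stood in a window of 3 members (7.9%) and of 12.2% of genes tested, and TGACNNNGC in a window of 7 members (18.4%) and of 17.3% of genes tested. One of these 7 is Pgd, in a second window that starts further downstream.

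Idh1 was the citrate cycle member that rose. It encodes the cytosolic isocitrate dehydrogenase, which makes NADPH outside the mitochondria. Idh1 stood at 335, 312 and 389 CPM in foamy replicates 1 to 3, against 133, 133 and 145 CPM in non-foamy replicates 1 to 3. The lowest foamy value was more than 2 times the highest non-foamy value. The log2 fold change was 1.33 (SE 0.17, edgeR adjusted p = 0.00124), and the call was kept under all 16 alternatives tried, with log2 fold changes from 1.06 to 1.43. Idh1 (ENSMUSG00000025950) lies on chromosome 1 of GRCm38 from 65158616 to 65186500 on the minus strand, and the counts cover its exons together. Idh2, the mitochondrial NADP-dependent enzyme, had 28.1, 11.8 and 23.5 CPM in foamy libraries, against 11.4, 14.3 and 18.9 CPM in non-foamy libraries, and the groups overlapped (log2 change 0.50 ± 0.39 SE, edgeR adjusted p = 0.559). Compared per kilobase of exon within each library, Idh2 made up 8.23, 3.88 and 6.07% of the Idh1 and Idh2 signal in foamy libraries and 8.37, 10.3 and 12.3% in non-foamy libraries. The mean share differed by -4.25 percentage points, foamy minus non-foamy, with p = 0.1 in a two-sided exact permutation test over 3 against 3 libraries, which is the smallest p that this design allows. Idh3a, the catalytic subunit of the NAD-dependent enzyme of the cycle itself, averaged 161 ± 15.8 CPM in the foamy and 183 ± 26.9 CPM in the non-foamy libraries (SD, n = 3 each) and was not called.

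Hk3 was the glycolysis member that rose. Hexokinases phosphorylate glucose and so hold it in the cell, and Hk3 is the isoform of myeloid cells. Hk3 had 65.0, 71.9 and 92.7 CPM in foamy libraries, against 36.0, 17.8 and 16.7 CPM in non-foamy libraries. The groups did not overlap, and non-foamy replicate 1 was the highest of its group. The log2 fold change was 1.71 (SE 0.32, edgeR adjusted p = 0.0114). Leaving out foamy replicate 3 or non-foamy replicate 2 ended the call, at a log2 fold change of 1.55 in each case. Hk3 (ENSMUSG00000025877) lies on chromosome 13 from 55005985 to 55021385 on the minus strand. Hk2, the inducible hexokinase bound to mitochondria, had 85.0, 55.8 and 87.6 CPM in foamy libraries, against 39.1, 60.2 and 53.3 CPM in non-foamy libraries (log2 change 0.58 ± 0.26 SE, edgeR adjusted p = 0.251). The groups overlapped only through foamy replicate 2 and non-foamy replicate 2. Hk1, the housekeeping hexokinase, was low in every library, with 3.56, 4.90 and 3.56 CPM in foamy libraries and 2.06, 7.38 and 5.23 CPM in non-foamy libraries.

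Per kilobase of exon, Hk3 held 54.7, 66.3 and 62.5% of the signal of the 3 hexokinase genes in foamy libraries. In non-foamy libraries it held 59.0, 30.6 and 32.2%, and there Hk2 was the larger part in replicates 2 and 3 but not in replicate 1. The mean share of Hk3 was 61.2 ± 5.94% in foamy and 40.6 ± 15.96% in non-foamy libraries (SD, n = 3 each; two-sided exact permutation test, p = 0.2). The groups overlapped in this share, and the difference was 29.8 percentage points without non-foamy replicate 1, against 20.5 with it. Hk1 did not exceed 5.48% of the hexokinase signal in any library.

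**Figure D1:**
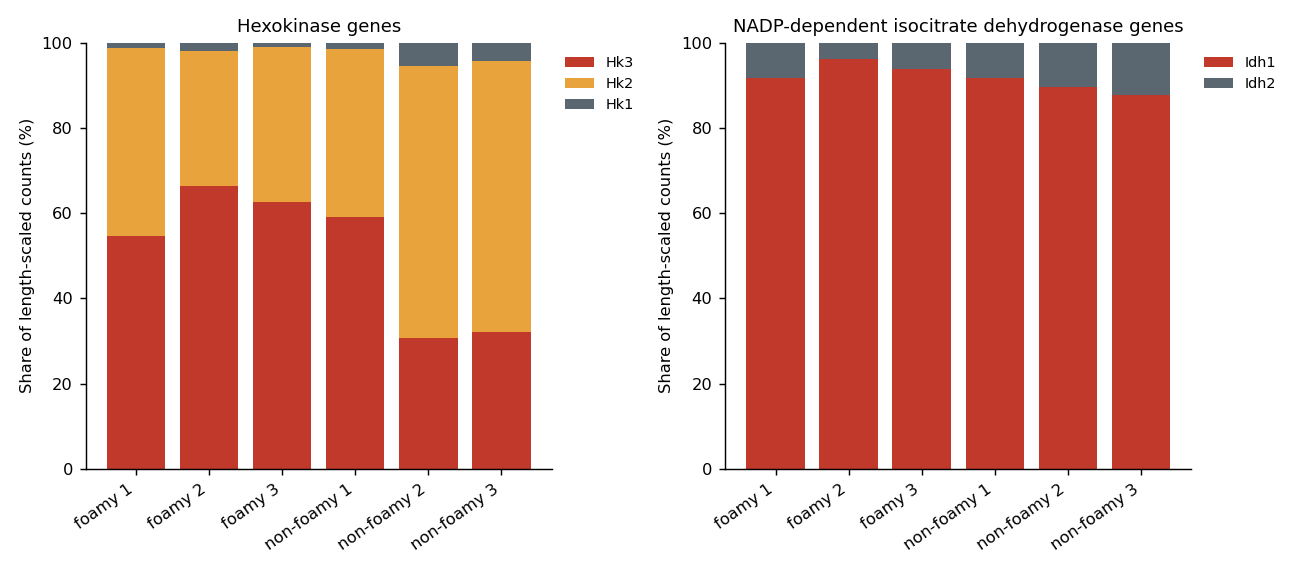
Share of each gene in the summed length-scaled counts (counts per kilobase of exon, %) of the hexokinase genes Hk1, Hk2 and Hk3 (left) and of Idh1 and Idh2 (right), one bar per library, foamy replicates 1 to 3 at the left. Hk3 held 54.7 to 66.3% in foamy libraries, and 59.0% in non-foamy replicate 1 against 30.6 and 32.2% in the other non-foamy libraries.

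Glucose uptake and the steps from Gpi1 to phosphofructokinase were not called. Slc2a1, the glucose transporter GLUT1, had 18.04, 15.9 and 19.6 CPM in foamy libraries, against 23.9, 25.2 and 20.98 CPM in non-foamy libraries. All foamy values lay below all non-foamy values, but the change was small against its error (log2 change -0.39 ± 0.28 SE, edgeR adjusted p = 0.532). Gpi1, which interconverts the phosphates of glucose and fructose, averaged 95.8 ± 25.7 CPM in the foamy and 78.7 ± 15.4 CPM in the non-foamy libraries. Of the phosphofructokinase genes, whose enzyme commits sugar to glycolysis, the platelet type Pfkp had 79.0, 58.5 and 84.1 CPM in foamy libraries, against 127, 66.7 and 83.6 CPM in non-foamy libraries. The liver type Pfkl had 13.7, 7.91 and 5.83 CPM in foamy libraries, against 8.50, 15.96 and 6.73 CPM in non-foamy libraries. Pfkp made up 79.2 ± 7.20% of their length-scaled signal in foamy and 79.6 ± 11.7% in non-foamy libraries (SD, n = 3 each; two-sided exact permutation test, p = 0.9). Pfkp shares 372 exon bases with Pitrm1 on the other strand, and whether the counting used strand is not stated. The same holds for 741 exon bases that Gpi1 shares with Gm26762 and 603 that Pdha1 shares with Map3k15. It also holds for 34 that Hk3 shares with Unc5a, which had at most 5 counts in a library. Tpi1 shares 34 exon bases with Spsb2 (155 to 325 counts per library) and Mdh1 shares 52 with Wdpcp, each on the other strand. Wdpcp had 120, 55 and 173 counts in foamy and 26, 10 and 48 in non-foamy libraries. The part of these overlaps in the counts was not tested. Pgls shares 776 bases with Fam129c on its own strand.

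Pfkfb3 and Pfkfb4 set the level of the sugar bisphosphate that activates phosphofructokinase. Pfkfb4 had 20.5, 19.9 and 23.0 CPM in foamy libraries, against 12.1, 12.3 and 15.6 CPM in non-foamy libraries. The groups did not overlap, and the gene was not called (log2 change 0.67 ± 0.31 SE, edgeR adjusted p = 0.275). Pfkfb3, the isoform known for its induction in inflammation and hypoxia, had 14.0, 25.1 and 17.2 CPM in foamy libraries, against 16.5, 18.6 and 13.6 CPM in non-foamy libraries, with overlapping groups (log2 change 0.21 ± 0.34 SE). Pfkfb4 held 67.1 ± 7.47% of their length-scaled signal in foamy and 59.2 ± 6.89% in non-foamy libraries (SD, n = 3 each; two-sided exact permutation test, p = 0.2).

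The steps after phosphofructokinase held the most abundant of the 18 glycolysis members. Aldoa, aldolase, stood at 1629.9, 1222 and 1515 CPM in foamy libraries, against 888, 1024 and 809 CPM in non-foamy libraries. Every foamy library was above every non-foamy library, and the adjusted p fell just short of the threshold (log2 change 0.68 ± 0.18 SE, edgeR adjusted p = 0.0527). Pkm, the pyruvate kinase of macrophages, had 359, 239 and 386 CPM in foamy libraries, against 191, 206 and 171 CPM in non-foamy libraries (log2 change 0.79 ± 0.21 SE, edgeR adjusted p = 0.0524). Foamy replicate 2 was the lowest foamy library for both. Aldoa and Pkm were each called under 6 of the 16 alternatives, and Pkm was called without foamy replicate 2 (log2 fold change 0.99). Tpi1, triose phosphate isomerase, had 126, 107 and 132 CPM in foamy libraries, against 82.2, 67.3 and 80.5 CPM in non-foamy libraries (log2 change 0.67 ± 0.20 SE, edgeR adjusted p = 0.0779). Ldha, the lactate dehydrogenase subunit that favours lactate, had 356, 301 and 344 CPM in foamy libraries, against 215, 289 and 282 CPM in non-foamy libraries. Its groups were apart by a small margin, and it was not called (log2 change 0.35 ± 0.18 SE, edgeR adjusted p = 0.345). Slc16a3, the lactate exporter MCT4, was near the limit of detection, with 36, 62 and 18 counts in foamy libraries and 33, 41 and 100 counts in non-foamy libraries.

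Gapdh, Pgk1, Pgam1 and Eno1, which act in sequence between Tpi1 and Pkm, were measured at lower levels per kilobase of exon than those neighbours. The exon length was 5379 bases for Eno1 and 2209 for Tpi1. Without scaling to length, Eno1 averaged 118 CPM in the foamy and 101 CPM in the non-foamy libraries, and Tpi1 122 and 76.7 CPM. The order of Eno1 and Tpi1 in the non-foamy libraries thus depended on this scaling. Per kilobase of exon, Aldoa averaged 529 ± 76.5 CPM in the foamy and 329 ± 39.5 CPM in the non-foamy libraries, while Gapdh averaged 2.04 ± 0.68 and 1.74 ± 0.73 CPM (SD, n = 3 each). On the same scale Pgam1 averaged 1.18 ± 0.39 CPM in the foamy and 0.80 ± 0.10 CPM in the non-foamy libraries, Pgk1 5.49 ± 0.87 and 4.19 ± 0.78 CPM, and Eno1 21.8 ± 4.71 and 18.8 ± 4.33 CPM. These are the 4 members with over 40% of their sequence, in windows of the read length of 50 bases, repeated exactly in an annotated transcript of another gene. The share of such windows was 68.0% for Pgk1, 58.4% for Gapdh, 49.5% for Eno1 and 41.5% for Pgam1. It was 0 in 18 members, under 10% in another 8 and between 10 and 40% in 9. For each of the 4 a coding window also found in other genes is printed from GENCODE M21, with bases counted from the start codon, since a read of these letters has several possible sources.
Gapdh (coding bases 507 to 556): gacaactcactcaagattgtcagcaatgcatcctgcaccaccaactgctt
Pgk1 (coding bases 1078 to 1127): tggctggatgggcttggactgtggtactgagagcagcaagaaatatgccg
Pgam1 (coding bases 268 to 317): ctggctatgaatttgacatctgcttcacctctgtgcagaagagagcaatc
Eno1 (coding bases 1125 to 1174): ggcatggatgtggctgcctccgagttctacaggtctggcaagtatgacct
The Gapdh window occurs in transcripts of 84 other genes, the Pgk1 window in 3, and the Pgam1 and Eno1 windows in 2 each. Gapdh had 581 counts over the 6 libraries, and the 53 genes of the table that share at least 10% of its windows had 765 together. Of the annotated Gapdh pseudogenes, Gapdh-ps14 had 25 counts and Gapdh-ps15 had 5. Pgk1 had 1275 counts and its 2 such copies had 2, Pgam1 had 213 counts and its copies Pgam1-ps1 and Pgam1-ps2 had 2 and 0, and Eno1 had 12942 counts and Eno1b 18. Ldha, with 10.4% of windows shared, had copies Ldha-ps and Ldha-ps2 with 5 and 4 counts. The treatment of reads with several matches is not stated, so the levels of these 4 members are uncertain and cannot be set against those of other members. The 9 members between 10 and 40% ran from 10.4% for Ldha to 30.3% for Pdhb. They included Pkm (23.7%) and the called Taldo1 (10.7%), and the part of shared reads in their levels was not tested. The share was 0 for the called Idh1, Hk3 and Pgd. None of Gapdh, Pgk1, Pgam1 and Eno1 was called. Their log2 fold changes were 0.23 (SE 0.59) for Gapdh, 0.39 (SE 0.38) for Pgk1, 0.55 (SE 0.83) for Pgam1 and 0.22 (SE 0.24) for Eno1. Pgk1 had 11.5, 14.5 and 10.9 CPM in foamy libraries, against 10.6, 10.2 and 7.40 CPM in non-foamy libraries, without overlap. Low levels were not limited to shared sequence: Hk1, Slc16a3 and Rpia averaged under 1 CPM per kilobase in both groups with at most 1.64% of windows shared.

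**Figure D2:**
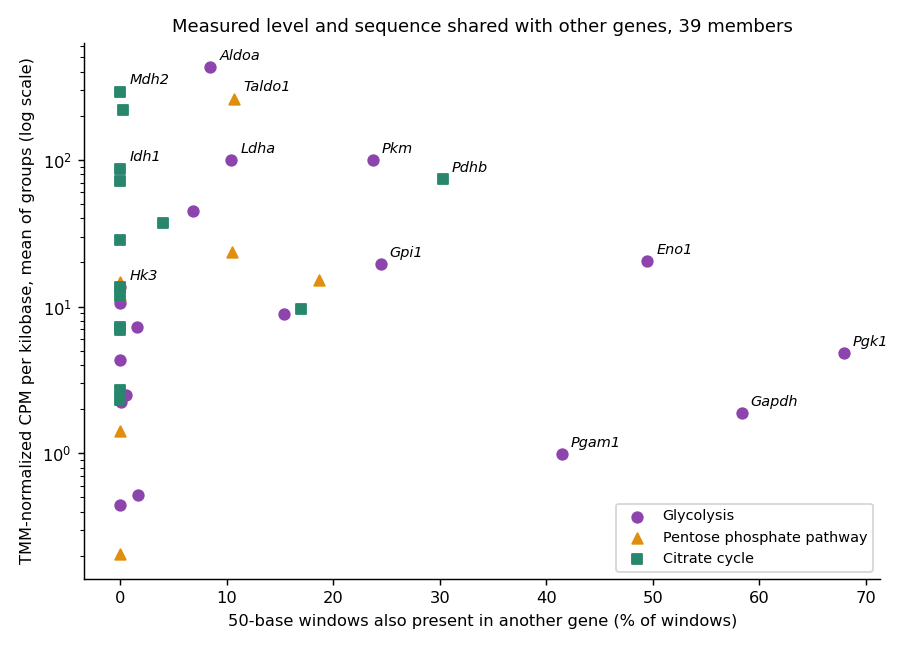
Level of each of the 39 members (TMM-normalized CPM per kilobase of exon, mean of the foamy and non-foamy group means, log scale) against the percentage of its 50-base windows found exactly in an annotated transcript of another gene. Gapdh, Pgk1, Pgam1 and Eno1 are the 4 members past 40%, and 3 of them lie below 10 CPM per kilobase.

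In the pentose phosphate pathway, enzymes of both arms rose. Taldo1, transaldolase of the non-oxidative arm, was the most abundant member, with 712, 597 and 704 CPM in foamy libraries, against 341, 381 and 403 CPM in non-foamy libraries. The groups were far apart relative to their spread (log2 change 0.84 ± 0.17 SE, edgeR adjusted p = 0.0145). Pgd, phosphogluconate dehydrogenase and the source of NADPH after G6pdx, had 113, 129 and 119 CPM in foamy libraries, against 67.2, 75.3 and 69.8 CPM in non-foamy libraries (log2 change 0.76 ± 0.19 SE, edgeR adjusted p = 0.0391). G6pdx, which encodes glucose phosphate dehydrogenase and opens the pathway, had 87.4, 78.1 and 104 CPM in foamy libraries, against 58.8, 57.5 and 47.4 CPM in non-foamy libraries. It was likewise without overlap but was not called (log2 change 0.72 ± 0.21 SE, edgeR adjusted p = 0.0806). G6pdx shares 418 exon bases with Ikbkg on the other strand. The calls of Taldo1 and Pgd depended on the setting. Taldo1 was not called without foamy replicate 1 (log2 fold change 0.80) or 3 (0.81) or non-foamy replicate 2 (0.85). Pgd was not called with total counts as the only scaling (0.50) or without any single library (0.72 to 0.81). Neither was called against a 1.5-fold change. With the replicate number as a block, both calls were also lost (edgeR adjusted p = 0.0695 for Taldo1 and 0.134 for Pgd). Taldo1 (ENSMUSG00000025503) lies on chromosome 7 from 141392199 to 141402968 on the plus strand, and Pgd (ENSMUSG00000028961) on chromosome 4 from 149149991 to 149166771 on the minus strand.

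The other members of this pathway were not called. Tkt, transketolase, which works beside transaldolase, averaged 79.5 ± 12.5 CPM in the foamy and 76.8 ± 4.97 CPM in the non-foamy libraries (log2 change 0.05 ± 0.20 SE). Rpe, the epimerase of ribulose phosphate, averaged 40.8 ± 4.86 CPM in the foamy and 53.5 ± 11.9 CPM in the non-foamy libraries (log2 change -0.39 ± 0.25 SE), with 558 exon bases shared with Kansl1l on the other strand. Pgls, the lactonase of the oxidative arm, averaged 5.31 ± 0.42 CPM in the foamy and 5.39 ± 2.14 CPM in the non-foamy libraries. Rpia, the isomerase of ribose phosphate, had 22, 22 and 22 counts in foamy libraries and 45, 1 and 16 counts in non-foamy libraries, too few to measure a change (log2 change 0.15 ± 1.16 SE). Rpia is the middle of the 7 log2 fold changes and so sets the median of the pathway.

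**Figure D3:**
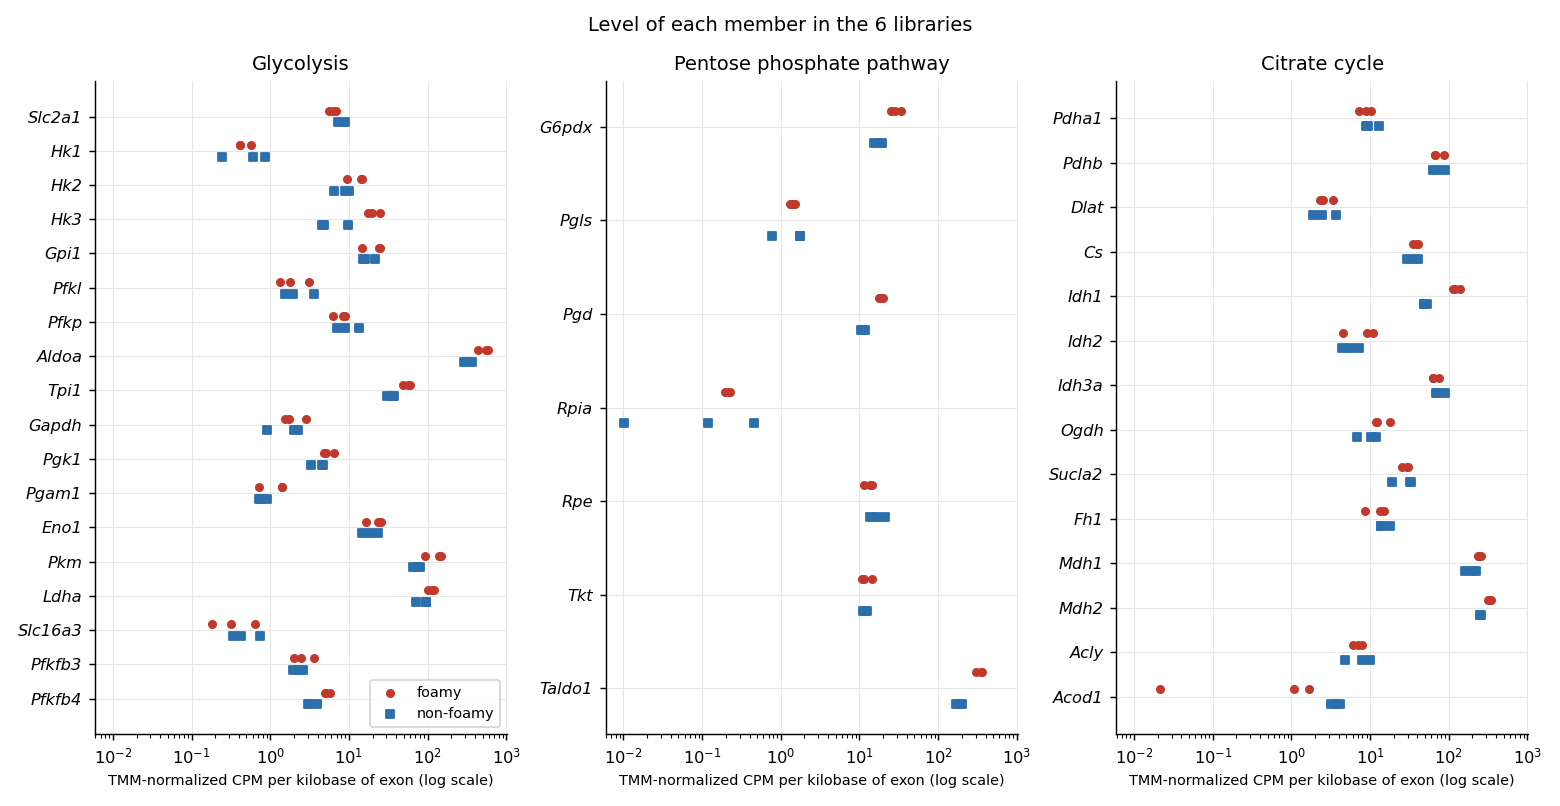
Level of each member in every library (TMM-normalized CPM per kilobase of exon, log scale), with foamy libraries as red circles above non-foamy libraries as blue squares. The called Idh1, Hk3, Taldo1 and Pgd show groups without overlap, as do 12 members that were not called. Foamy replicate 2 stands apart at the low end for Acod1.

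The entry to the citrate cycle and most of its enzymes were not called. The pyruvate dehydrogenase genes Pdha1, Pdhb and Dlat, whose complex makes acetyl-CoA, had log2 fold changes of -0.24 (SE 0.26), -0.02 (SE 0.21) and 0.05 (SE 0.39). Pdha1 averaged 32.8 ± 5.83 CPM in the foamy and 38.8 ± 7.93 CPM in the non-foamy libraries, and Dlat 13.5 ± 2.84 and 13.04 ± 4.57 CPM. Pdhb averaged 109 ± 17.2 CPM in the foamy and 111 ± 19.7 CPM in the non-foamy libraries. Cs, citrate synthase, averaged 109 ± 8.73 CPM in the foamy and 100.2 ± 15.0 CPM in the non-foamy libraries (log2 change 0.12 ± 0.20 SE). Sucla2, a subunit of succinyl-CoA synthetase, and Fh1, fumarase, had log2 fold changes of 0.02 (SE 0.24) and -0.29 (SE 0.27). Ogdh, of the oxoglutarate dehydrogenase complex, had 67.2, 64.9 and 97.8 CPM in foamy libraries, against 64.3, 56.4 and 37.2 CPM in non-foamy libraries. Its groups were apart by less than 1 CPM, and it was not called (log2 change 0.54 ± 0.27 SE, edgeR adjusted p = 0.316).

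The malate dehydrogenase genes were the most abundant of the 14 citrate cycle members. Mdh2, the mitochondrial enzyme, had 725, 652 and 701 CPM in foamy libraries, against 542, 527 and 516 CPM in non-foamy libraries (log2 change 0.39 ± 0.16 SE, edgeR adjusted p = 0.198). Mdh1, the cytosolic enzyme, had 599.9, 661 and 626 CPM in foamy libraries, against 416, 570.0 and 517 CPM in non-foamy libraries (log2 change 0.33 ± 0.17 SE, edgeR adjusted p = 0.357). For both, all foamy values lay above all non-foamy values, and neither was called. Mdh2 held 57.5 ± 2.52% of their length-scaled signal in foamy and 56.6 ± 4.37% in non-foamy libraries (SD, n = 3 each; two-sided exact permutation test, p = 0.9).

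Of the genes that draw on the cycle, Acod1 was the lowest in foamy libraries relative to non-foamy ones. Acod1, which encodes the enzyme of itaconate synthesis, had 60, 1 and 81 counts in foamy libraries, against 203, 150 and 249 counts in non-foamy libraries, or 2.85, 0.056 and 4.37 CPM against 11.0, 8.26 and 9.80 CPM. Every foamy value lay below every non-foamy value, and foamy replicate 2, with its single count, was the lowest by far. The gene was not called (log2 change -1.99 ± 0.92 SE, edgeR adjusted p = 0.276), nor under any of the 16 alternatives, whose log2 fold changes ran from -3.17 to -1.41. Acly, which splits citrate into acetyl-CoA for lipid synthesis, had overlapping groups, with 37.1 ± 4.45 CPM in the foamy and 39.5 ± 13.7 CPM in the non-foamy libraries (SD, n = 3 each; log2 fold change -0.09, SE 0.30).

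**Figure D4:**
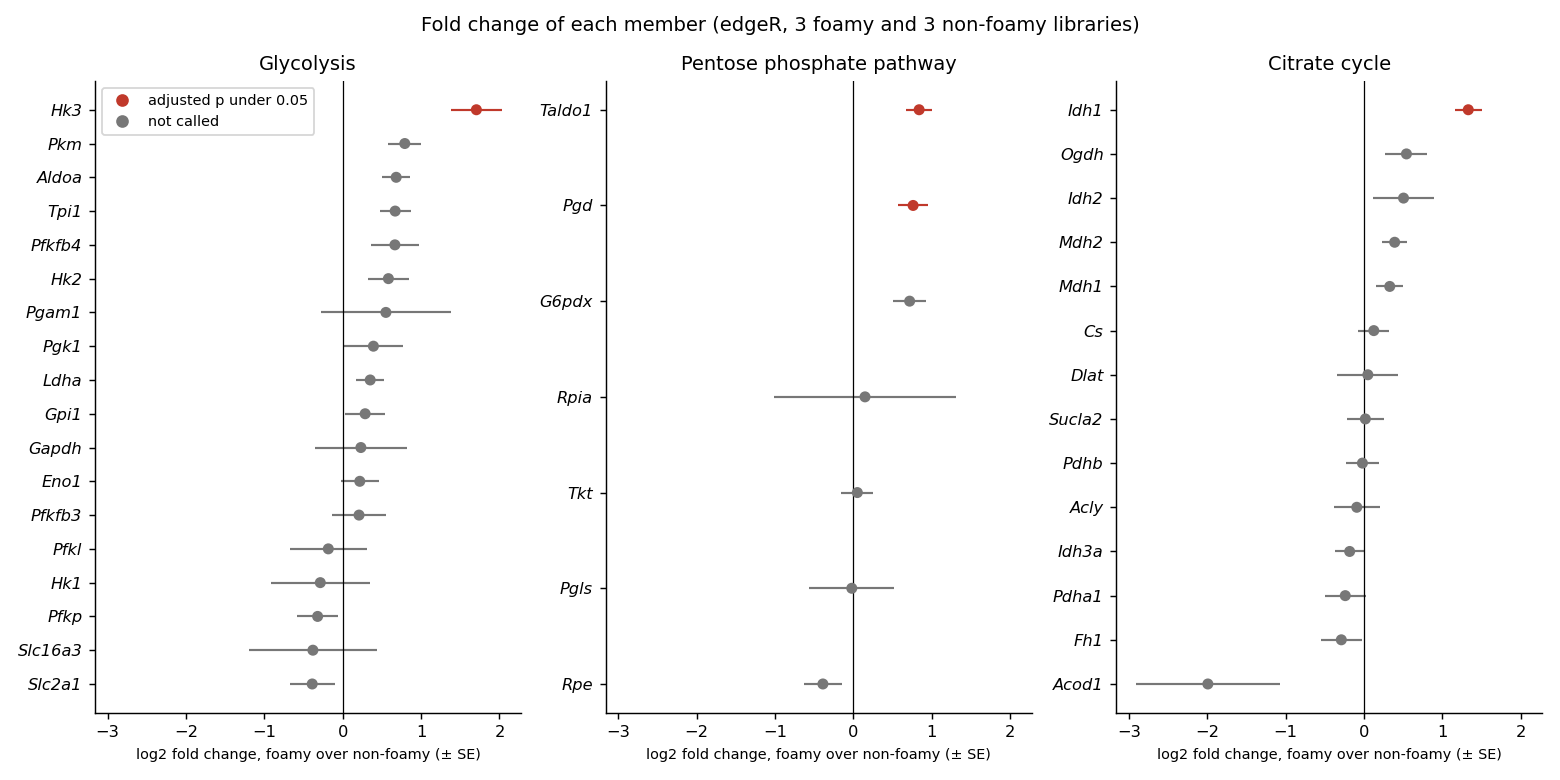
Log2 fold change of each member, foamy over non-foamy, with its standard error, ordered within each pathway (3 foamy and 3 non-foamy libraries). Red points are the 4 members with an edgeR adjusted p under 0.05, and Acod1 is the lowest point at -1.99.

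Together the 39 members took 6487, 5504 and 6503 CPM in foamy libraries, against 4320.0, 4615 and 4256 CPM in non-foamy libraries. The ratio of the mean sums was 1.48 in glycolysis, 1.58 in the pentose phosphate pathway and 1.26 in the citrate cycle with TMM scaling. It was 1.23, 1.31 and 1.05 in CPM without TMM factors. The sums rest on a few abundant genes, since Aldoa, Taldo1, Mdh1 and Mdh2 lead them. Within the foamy group, replicate 2 was the lowest library for 23 of 39 members (59.0%), against 34.4% of all genes tested. It was the lowest for 11 of 18 glycolysis and 10 of 14 citrate cycle members, but for 2 of 7 pentose phosphate members, where replicate 1 was the lowest for 5. The SE of the log2 fold change ran from 0.16 for Mdh2, with 72647 counts over the 6 libraries, to 1.16 for Rpia, with 128.

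Other genes of the same pathways were examined as lists chosen from textbook membership, with earlier results of these data known. Of 30 other glycolysis genes 18 were tested, and 1 was higher and none lower, Ldhb, the lactate dehydrogenase subunit that favours pyruvate. Ldhb had 15.7, 20.3 and 31.2 CPM in foamy libraries, against 8.34, 3.25 and 7.01 CPM in non-foamy libraries, without overlap (log2 change 1.85 ± 0.45 SE, edgeR adjusted p = 0.0366). Of the genes next in order of p, Bpgm, which makes the bisphosphoglycerate of red cells, had 12.6 ± 1.82 CPM in the foamy and 4.78 ± 4.35 CPM in the non-foamy libraries (log2 change 1.402 ± 0.62 SE), and Pgm2 had 26.5 ± 8.65 and 39.4 ± 4.61 CPM (log2 change -0.57 ± 0.30 SE). Of 10 other pentose phosphate genes 8 were tested and 1 was higher, Dera, which splits deoxyribose phosphate, with 117, 118 and 97.6 CPM in foamy libraries, against 71.6, 59.2 and 61.9 CPM in non-foamy libraries (log2 change 0.79 ± 0.20 SE, edgeR adjusted p = 0.0431). Next in order of p were Prps2 (log2 change -0.50 ± 0.28 SE) and Prps1l3 (0.75, SE 0.43). The calls of Ldhb and Dera each held under 8 of 16 alternatives. Of 33 other citrate cycle genes 28 were tested and edgeR called none. At an unadjusted p under 0.05 edgeR had 4 higher and 0 lower, DESeq2 5 higher and 1 lower, and limma-voom 7 higher and 0 lower. At an adjusted p under 0.05 DESeq2 called 2 higher and limma-voom 0, and both called 0 lower. Over all genes DESeq2 called 592 of 13805 higher and limma-voom 279 of 11303. The unadjusted share of all genes was not determined. The nearest were Suclg1, of succinyl-CoA synthetase, at 131 ± 22.6 CPM in the foamy and 79.7 ± 10.8 CPM in the non-foamy libraries (log2 change 0.72 ± 0.21 SE, edgeR adjusted p = 0.0772), Dld, the shared subunit of the pyruvate and oxoglutarate dehydrogenase complexes (0.59, SE 0.19, edgeR adjusted p = 0.112), and Sdhb, of succinate dehydrogenase (0.46, SE 0.16, edgeR adjusted p = 0.142). The median log2 fold change of the tested genes was 0.16, 0.18 and 0.29 in the 3 lists.

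The libraries held 18592421 to 24279802 counts in genes in the foamy and 15628627 to 24619075 in the non-foamy group. Genes with at least 1 count numbered 15595 to 17757 in foamy and 19380 to 24701 in non-foamy libraries, the most in non-foamy replicate 1. Fcgr1 (CD64) and Itgam (CD11b), the genes of the sorting gate, averaged 232 and 77.8 CPM in the foamy libraries and 182 and 142 CPM in the non-foamy libraries. All 10 macrophage markers examined were detected, with summed levels of 54792 to 62904 CPM in the foamy and 23726 to 36919 CPM in the non-foamy libraries, most of it Lyz2, Cd68 and C1qb. Of these 10 markers edgeR called Lyz2, Cd68 and Mertk higher and Itgam, Csf1r and Adgre1 lower. Markers of other cells and stress genes also differed between the groups. Of 8 monocyte markers 7 were tested and 6 were lower, with a median log2 change of -4.99. Of 12 immediate early and heat shock genes, a group known to respond to enzymatic dissociation, 11 fell, with sums of 2149 to 2580 CPM in the foamy and 4774 to 7100 CPM in the non-foamy libraries. Dendritic cell markers summed to 0.33 to 15.99 CPM in the foamy and 33.1 to 252.8 CPM in the non-foamy libraries, most of it Cd209a in the non-foamy libraries. Of the 6 markers only 1, Cd209a, was tested, and it was not called (log2 change -4.95 ± 1.93 SE, edgeR adjusted p = 0.278). Clec9a went the other way, with 0, 22 and 33 counts in foamy libraries and 0 in each non-foamy library. Cd4, on the T cell list, was higher, with 11.4 to 21.4 CPM in the foamy and 0.472 to 3.47 CPM in the non-foamy libraries (log2 change 3.52 ± 0.76 SE, edgeR adjusted p = 0.0216), while the other 5 T cell markers were too low to be tested. Of 6 neutrophil markers 3 were tested and 1, S100a9, was lower (edgeR adjusted p = 0.0077). S100a9 had at most 0.054 CPM in a foamy library and 1.30 to 16.95 CPM in the non-foamy libraries. Csf3r went the other way, at 13.3 to 25.1 CPM in the foamy and 6.55 to 9.33 CPM in the non-foamy libraries. It was not called (edgeR adjusted p = 0.0634). Summed neutrophil markers averaged 22.5 ± 6.74 CPM in the foamy and 22.8 ± 15.2 CPM in the non-foamy libraries (SD, n = 3 each). No monocyte or dendritic cell marker was at 0 in all libraries. Sums of fibroblast markers reached 171 CPM in foamy replicate 3 and 307 CPM in non-foamy replicate 3 and did not separate the groups. The part of these differences in the values of the metabolic genes was not tested. In bulk libraries, fewer cells of a type and less RNA per cell cannot be told apart.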

How the data were processed

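Bulk RNA-seq libraries were prepared for 3 foamy and 3 non-foamy samples. Per the labels' protocols, sorting followed digestion for 70 min at 37 °C, and SMARTer Ultra Low cDNA was amplified over 12 cycles and sequenced as single reads of 50 bases. GRCm38, featureCounts 1.4.5, Subread and STAR 2.0.4b are listed in the submitters' processing notes. Each deposited table gives whole-number counts of reads per gene, not normalized, and the authors' CPM and RPKM. The deposited CPM is the count scaled to the library's total in genes and the deposited RPKM equals that CPM per kilobase of the table's length, on every gene to within 1e-06. Tests used the counts. CPM in the text are the deposited counts scaled to each library's total in the genes tested, with TMM factors (0.868 to 0.966 in foamy and 1.035 to 1.186 in non-foamy libraries). 

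Symbols were found for 97.26% of IDs. Genes were tested with edgeR 4.0.16 in R 4.3.3 (filterByExpr, TMM, robust quasi-likelihood F-test), foamy over non-foamy, with Benjamini-Hochberg adjustment. The SE was obtained by dividing the absolute log2 fold change by the root of F. Alternatives were RLE and upper-quartile factors, total counts only, DESeq2 1.42.0, limma-voom (limma 3.58.1), no filter and a stricter filter (10 counts in 3 libraries, mean of 5 CPM), a replicate block, removal of mitochondrially encoded and ribosomal protein genes, glmTreat against 1.5-fold, and leaving out single libraries in turn. Permutation tests used scipy 1.17.1. The procedure was tested on simulated data. Shared windows were exact matches, on either strand, between protein-coding transcripts of a member and transcripts of other genes in GENCODE M21, and this check was chosen after the data were examined. Promoters are from RefSeq (GRCm38.p6). The members and lists were chosen with earlier results of these data known. Named in full were members called, members whose groups do not overlap, isoform pairs and the most abundant member of each pathway, and of the other pathway genes those called or, with fewer than 3 called, the 3 of lowest p; other values were named to account for every member. Libraries of a group differed by more than counting noise (chi-square over its degrees of freedom 54.55 to 164.29).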

Additional observations from a re-analysis of the deposited data

How the results depend on the processing

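The call of Idh1 was kept under all 16 alternatives. The number of citrate cycle members called was 1 throughout. In glycolysis it was 1, but 4 by DESeq2, 2 by limma-voom, 3 without a filter, with the stricter filter, with upper-quartile factors or without mitochondrial and ribosomal protein genes, and 0 to 2 with each library left out. In the pentose phosphate pathway it was 2, but 3 by DESeq2, 0 against a 1.5-fold change, 1 with total counts only and 0 to 1 with each library left out. Of the other pathway genes 2 were called, but 4 by DESeq2, 0 against a 1.5-fold change or with total counts only, and 0 to 3 with each library left out. Over all genes 611 were called, but 1419 by DESeq2, 276 against a 1.5-fold change and 271 to 579 with each library left out. With total counts only, 165 genes were higher and 614 lower, against 283 and 328 with TMM. The median log2 fold change of glycolysis was 0.318, 0.043 with total counts only and 0.226 to 0.459 with each library left out. That of the pentose phosphate pathway was 0.148, 0.724 by limma-voom, -0.183 with total counts only and 0.104 to 0.724 with each library left out. That of the citrate cycle was 0.033, -0.231 with total counts only, 0.129 without a filter, 0.010 with the stricter filter and 0.055 to 0.118 with each library left out. The difference in the share of Pfkp (foamy minus non-foamy, percentage points) was -0.41 and ran from -7.16 to 3.50 with each library left out. That of Mdh2 was 0.89 and ran from -0.82 to 3.35, so that the sign of both differences depended on the libraries used. The causes of these changes were not tested.

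Same-numbered libraries of the groups showed no shared deviation (correlations of -0.071, -0.023 and -0.031 across genes). The labels do not say whether the numbers pair the samples, and correlations from 3 libraries per group cannot exclude a pairing. With the replicate number as a block, 391 genes, no pentose phosphate member (0) and 0 other pathway genes were called, and the pentose phosphate median was 0.714.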
